A study of Mus musculus with 34 samples.

Results

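Liver RNA of C57/B6 wild-type mice was compared between week 48 (4 arrays) and week 20 (5 arrays), which together are 9 of the 34 arrays of the series. The 9 arrays were chosen by their titles, genotype label and age. The wild-type livers carry no transgene and served as the controls of a study of Pdgf-c transgenic mice (Tg), which develop hepatic fibrosis and tumours. The sample labels name neither the diet nor the sex of the wild-type mice, nor the promoter that drives the transgene in the others. Besides the wild-type livers, the text uses the transgenic livers on a basal diet (5 arrays at week 20, 5 at week 48) and those on a diet with 0.06% of the acyclic retinoid peretinoin, begun at weaning in week 4 (5 and 5). Age, harvest and handling of the tissue all go with the group, so an effect of age cannot be told apart from an effect of the day or hour of collection.

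Mouse liver keeps a circadian clock, in which the activators Clock, Npas2 and Arntl drive their own repressors (Per, Cry, Nr1d1 and Nr1d2) and a set of output factors (Dbp, Tef, Hlf), so that the activators and the output factors peak at opposite times of day. Many liver genes of lipid, xenobiotic and protein metabolism follow that clock. Hepatocytes also secrete much of the plasma protein, and their endoplasmic reticulum (ER) folds it with chaperones whose genes share an ER stress response element, bound by ATF6 together with NF-Y. Hepatocytes store fat in lipid droplets, coated by proteins of the perilipin and Cide families.

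RNA was hybridised to Affymetrix Mouse Genome 430 2.0 arrays, and values are MAS5 signals, a linear intensity. The 9 arrays correlated with each other at 0.941 to 0.975 (log2 signal), and their median signals were 71.7 to 92.3. Hepatocyte markers had a mean log2 level of 14.4 to 14.7 in both groups. The 2 ages did not overlap in 3 further measures: a clock index, the completeness of the Actb RNA and the level of skeletal muscle markers. The clock index (mean log2 level of Arntl, Npas2 and Clock minus that of Dbp, Nr1d1, Nr1d2, Tef and Per3) was -4.45 to -2.1 at week 20 and -1.29 to 0.90 at week 48. The ratio of the 3' to the 5' control probe set of Actb, a measure of how complete the labelled RNA is, was 1.81 to 2.16 at week 20 and 1.39 to 1.71 at week 48. Its log2 difference was -0.37 (exact two-sided permutation test over 126 assignments, p = 0.0159, the smallest possible). The same ratio of Gapdh was 0.746 to 0.848 and 0.685 to 0.791 (exact permutation p = 0.444). The mean log2 level of 12 skeletal muscle markers was 5.2 to 5.71 at week 20 and 5.76, 6.08, 5.93 and 11.64 at week 48, so that all 4 week 48 arrays lay above week 20 and replicate 4 far above the rest. Replicate 4 was also the highest for smooth muscle markers (9.2). For the skeletal muscle markers the exact permutation p was 0.0159, or 0.239 when adjusted over the 15 cell lists examined.

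**Figure D1:**
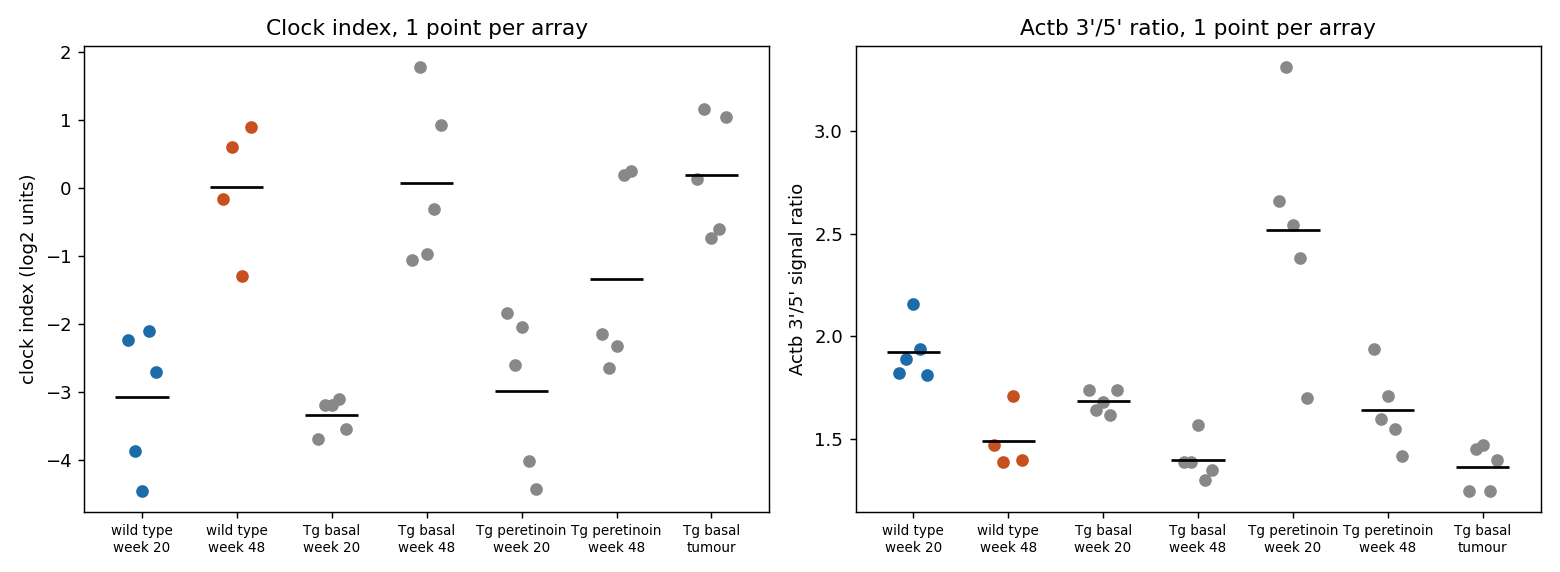
Clock index (left, log2 units) and linear Actb 3'/5' signal ratio (right) of each array, 1 point per array, with the group mean as a bar, for the 7 groups of the series. The wild-type groups, in colour, do not overlap in either measure.

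Of 13099 genes measured, 901 differed between the ages at an adjusted p under 0.05 (6.88%; limma, Benjamini-Hochberg over all genes), 316 higher at week 48 (2.41%) and 585 lower (4.47%). At least a 2-fold difference was reached by 162 of them (1.24%), 83 higher and 79 lower. The median change of all genes was -0.02 on the log2 scale. The 2 groups did not overlap for 1158 genes (8.84%), and 631 of those were among the 901. With the clock index as a covariate 211 genes were called (1.61%), 158 of them among the 901 in the same direction. With the Actb ratio as a covariate 537 were called (4.1%), 396 of them shared. Fitted on the 9 wild-type arrays alone, 302 were called (2.31%). Without week 20 replicate 2 the count was 581, and without week 48 replicates 2, 3 or 4 it was 556, 528 and 518. Centring each array on its median turned the split from 316 higher and 585 lower to 200 higher and 727 lower, or from 35.1% to 21.6% higher. Among the 65 genes named below that were called, 12 kept their call in every setting that measured them and with each of the 9 arrays left out in turn. These were Cidea, Neat1, Acnat2, Syvn1 and Ceacam1, which were higher at week 48, and Cdkn2c, Gmnn, Wipf3, Prm1, Fam131b, H2az2 and Abhd8, which were lower. The labels do not say beyond the titles that the samples are separate animals, so p-values measure the spread between samples. Apart from the fit on the wild-type arrays alone, that spread was estimated within the groups of the whole series and not from the 9 wild-type arrays only. RNA of whole liver was measured, so fewer cells of a type and less RNA per cell cannot be told apart.

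The promoter stretches below are shown because the called genes include a clock group and an ER group. The ER group is known for a shared DNA element, and the clock group for several elements, each held by some of its members. Sequences are those of RefSeq (build GRCm38.p6), 5' to 3' on the strand of the gene. For the ER genes, the stretch before the start holds the ER stress response element, CCAAT and CCACG with 9 bases between them, on either strand (capitals mark these letters).
Hspa5, chr2:34772005-34772063, plus strand: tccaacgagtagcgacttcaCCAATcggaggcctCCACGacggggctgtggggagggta
Hsp90b1, chr10:86705513-86705676, minus strand: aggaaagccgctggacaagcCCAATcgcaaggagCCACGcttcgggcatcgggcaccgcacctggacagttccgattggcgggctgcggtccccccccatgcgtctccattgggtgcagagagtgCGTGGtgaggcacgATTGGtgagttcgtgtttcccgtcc
Creld2, chr15:88819500-88819558, plus strand: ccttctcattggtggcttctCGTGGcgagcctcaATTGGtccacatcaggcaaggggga
Syvn1, chr19:6046512-6046570, plus strand: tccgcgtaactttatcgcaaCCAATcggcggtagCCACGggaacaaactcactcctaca
Hsp90b1 holds the element on both strands, and Creld2 on the opposite strand to the gene. The letters occur in 39 of 32851 RefSeq mouse promoters of 300 bases (0.119%), and in the promoters of 4 of the 15 ER list genes that had one. These were Hspa5, Hsp90b1, Creld2 and Calr, and the first 3 are among the 7 called members with a promoter. For the clock genes, Per3 holds 2 copies of the D-box TTANGTAA, the site of Dbp, Tef and Nfil3, and Tef holds an E-box CACGTG, the site of Clock and Arntl, before each of its 2 starts (capitals mark the boxes).
Per3, chr4:151044796-151044890, minus strand: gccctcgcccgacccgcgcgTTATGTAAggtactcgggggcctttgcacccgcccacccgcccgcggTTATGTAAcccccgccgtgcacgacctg
Tef, chr15:81802526-81802571, plus strand: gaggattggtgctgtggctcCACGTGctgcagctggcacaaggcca
Tef, chr15:81811256-81811301, plus strand: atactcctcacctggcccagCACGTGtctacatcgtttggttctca
The D-box letters, searched on both strands, occur in 2.32% of all promoters and in 1 of the 14 clock list genes with a promoter, and the E-box letters in 7.15% and in 4 of the 14 (Ciart, Cry1, Per1 and Tef). The ROR element TAGGTCA, through which Nr1d1 and Nr1d2 act, occurs in 2.61% and in 2 of the 14 (Arntl and Nfil3). Its other form, TGGGTCA, was also searched and occurs in 3.98% of all promoters and in 0 of the 14. Of the 8 called clock members with a promoter, 1 held the E-box (Tef), 1 the D-box (Per3) and 2 the letters TAGGTCA (Arntl and Nfil3). The stretches printed are thus those of called genes with a match. A match describes the letters of this window only.

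The circadian clock list had the highest share of called members among the 47 lists of genes examined. Of 18 on the list, 16 were measured, and 9 of these were called (56.25%, against 6.88% of all genes), 4 higher and 5 lower at week 48. The median change of the 16 was -0.49 on the log2 scale. The activators were higher. Arntl, which encodes BMAL1, had signals of 317, 136, 60.3, 351 and 264 at week 20 and 709, 746, 514 and 739.7 at week 48. The lowest week 48 array lay above the highest week 20 array, and the change was 1.72 ± 0.42 on the log2 scale (adjusted p = 0.0117). Its partner Npas2 had signals of 21.9, 23.6, 3.4, 41.9 and 47.7 at week 20 and 122, 126, 92 and 201 at week 48. These groups did not overlap either, and the change was 1.86 ± 0.48 (adjusted p = 0.0172). Clock, the other partner, was 1361, 509, 611, 566 and 844 at week 20 and 1261, 1384, 1139 and 1355 at week 48, so that week 20 replicate 1 stood inside the week 48 range, with a change of 0.8 ± 0.21 (adjusted p = 0.0181). Nfil3, a repressor at D-boxes, was 782, 587, 658, 1090.3 and 518 at week 20 and 1429.6, 2288, 1477 and 2074 at week 48 without overlap and changed by 1.32 ± 0.3 (adjusted p = 0.00818).

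Of the D-box activators Dbp and Tef were lower at week 48 and Hlf did not pass, and 3 of the repressors were lower. Dbp, an output factor that binds D-boxes, had signals of 3395, 8286, 9879, 2298 and 5691 at week 20 and 532, 190.5, 1084 and 143 at week 48. All week 48 arrays lay below all week 20 arrays, and the change was -3.79 ± 0.77 on the log2 scale, the largest fall of any gene under the naming rule (adjusted p = 0.0034). Tef, its relative, was 2139.8, 4064, 3588, 2339 and 2514 at week 20 and 1399, 1146, 2144 and 827 at week 48, with week 48 replicate 3 at the lower edge of the week 20 range (-1.12 ± 0.29, adjusted p = 0.0167). Per3 was 124, 472, 343, 190.2 and 198 at week 20 and 15.8, 21.2, 139 and 20.8 at week 48. Week 48 replicate 3 stood inside the week 20 range and the other 3 far below it, and the change was -2.32 ± 0.41 (adjusted p = 0.00102). Nr1d2, which represses Arntl, was 5560.4, 8841, 7390.5, 4387 and 6109 at week 20 and 3411, 2022, 4173 and 2099 at week 48 without overlap (-1.17 ± 0.3, adjusted p = 0.018). Bhlhe40, another repressor of Clock and Arntl, ranged from 2284 to 6144 at week 20 and 1389.7 to 2202 at week 48 and changed by -1.14 ± 0.29 (adjusted p = 0.0158).

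The other 7 measured clock genes did not pass the test. Nr1d1 was 462, 293, 446, 176 and 591 at week 20 and 662, 282, 604 and 333 at week 48, with overlap and a change of 0.27 ± 0.65 (adjusted p = 0.867). The changes of Ciart, Per1 and Per2 were -2.08 ± 0.73, -0.85 ± 0.51 and -0.6 ± 0.38 (adjusted p = 0.0793, 0.349 and 0.383). Ciart ranged from 20.7 to 571 at week 20 and 6.3 to 34 at week 48, so the week 20 arrays spread more than the ages differed. Cry1, Cry2 and Hlf changed by 0.44, -0.37 and -0.18 (adjusted p = 0.554, 0.406 and 0.813). With the clock index, which is built from 8 of these genes, as a covariate, 0 of the 16 were called, and with the Actb ratio 6 were. Leaving out 1 array ended the calls of Npas2 (week 20 replicate 3, week 48 replicate 4), Clock (week 20 replicate 2, week 48 replicates 2 or 4), Tef (week 20 replicate 2, week 48 replicates 2 or 4), Nr1d2 (week 20 replicate 2, week 48 replicates 2 or 4) and Bhlhe40 (week 48 replicate 2) (adjusted p from 0.0503 to 0.0863 in those fits), so that the list counted 5 calls without week 48 replicates 2 or 4 and 6 without week 20 replicate 2. Averaging all probe sets of a gene also ended the calls of Tef (adjusted p = 0.166) and Arntl (adjusted p = 0.0531).

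**Figure D2:**
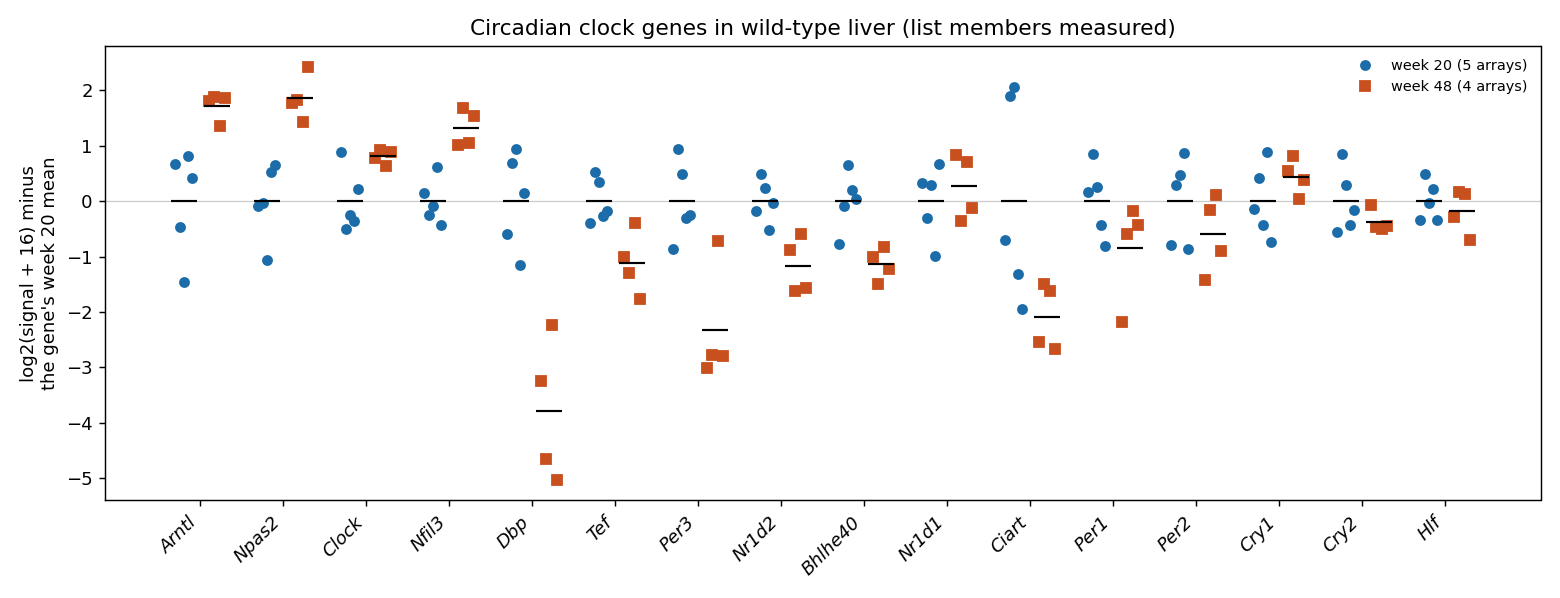
Signals of the 16 measured clock genes on each wild-type array, as log2(signal + 16) minus the gene's week 20 mean (circles week 20, squares week 48, bars group means). Arntl, Npas2, Clock and Nfil3 sit above 0 at week 48, Dbp and Per3 furthest below it, and Nr1d1, Cry1, Cry2 and Hlf overlap.

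The called genes downstream of the clock were lower at week 48. Of 11 on the list, 10 were measured, and 3 were lower at week 48 (30%, against 4.47% of all genes) and 0 higher (median of the list -0.78). Upp2, a uridine phosphorylase, had signals of 8045, 19328, 14098, 7862 and 9098 at week 20 and 4791, 2626, 4390 and 2787 at week 48. The groups were well apart, with a change of -1.63 ± 0.4 (adjusted p = 0.0117). Wee1, a kinase that holds back entry into mitosis, was 409, 1095, 1139.8, 954 and 365 at week 20 and 299, 298, 178 and 320.5 at week 48 (-1.36 ± 0.34, adjusted p = 0.0137). Usp2, a deubiquitinase, ranged from 594 to 2395 at week 20 and 294 to 587 at week 48 (-1.47 ± 0.45, adjusted p = 0.0416). Elovl3, an elongase of very long fatty acids, was 14819, 1533, 5943, 2789 and 11888 at week 20 and 18863, 23388, 17828 and 23405 at week 48. Every week 48 array lay above every week 20 array, but the week 20 arrays spanned a wide range and the change of 1.94 ± 0.82 did not pass the test (adjusted p = 0.16). None of the 3 called genes passed with the clock index as a covariate (adjusted p = 0.753, 0.367 and 0.784). Leaving out 1 array ended the calls of Wee1 (week 48 replicate 3) and Usp2 (week 20 replicates 2, 3 or 4, week 48 replicates 1, 2, 3 or 4) (adjusted p from 0.0566 to 0.131).

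Of 16 ER chaperone and quality-control genes, all measured, 8 were higher at week 48 (50.0%, against 2.41% of all genes), 0 were lower and 8 were not called. The list median was 0.53 against -0.02 for all genes. With the clock index as a covariate 0 of the 16 were called. Sel1l and Syvn1 form the ubiquitin ligase that removes misfolded proteins from the ER, and Syvn1 stands outside the list and was chosen after its values were seen. Sel1l had signals of 2904, 2447, 3573, 2236 and 2406 at week 20 and 6637, 4325, 5325 and 4958 at week 48. The lowest week 48 array exceeded the highest week 20 array, and the change was 0.97 ± 0.19 on the log2 scale (adjusted p = 0.00219). Syvn1 was 3072, 2347, 2897, 2744 and 2154 at week 20 and 5834, 5712, 8593 and 5972 at week 48. Week 48 replicate 3 was the highest, the groups did not overlap, and the change was 1.29 ± 0.21 (adjusted p = 0.000434). Both probe sets of Syvn1 and 3 of the 5 of Sel1l showed no overlap between the ages.

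The other called members were secreted stress factors, chaperones and Atf4. Creld2, an ER stress inducible secreted factor, had signals of 3804, 1526, 3098, 5622 and 2721 at week 20 and 9328, 7435, 9594 and 8588 at week 48, with week 20 replicate 4 as the nearest to week 48 (1.49 ± 0.38, adjusted p = 0.0166). Manf, a secreted ER stress protein, was 10932, 5880.1, 10023, 13611 and 8759 at week 20 and 18992, 17498, 19261 and 22647 at week 48 (1.04 ± 0.24, adjusted p = 0.00982). Hsp90b1, the ER form of HSP90 known as GRP94, was 17511, 14214, 15752, 13324 and 16844 at week 20 and 21341, 21043, 23811 and 25418 at week 48, with no overlap (0.56 ± 0.12, adjusted p = 0.00586). Dnajb11, a co-chaperone of BiP, ranged from 1864 to 2466 at week 20 and 3222 to 3842 at week 48 (0.7 ± 0.19, adjusted p = 0.0218). Hspa5, which encodes BiP itself, was 21520.3, 15829, 18987, 26962 and 21061 at week 20 and 26549, 30872, 29513 and 29415 at week 48, so that week 20 replicate 4 stood within the week 48 range (0.5 ± 0.15, adjusted p = 0.0422). Pdia4, a disulfide isomerase, was 915, 772, 616, 608 and 781 at week 20 and 714, 1303, 1377 and 1263 at week 48. Its week 48 replicate 1 lay inside the week 20 range while the other 3 lay above it (0.62 ± 0.19, adjusted p = 0.0436). Atf4, a transcription factor of the stress response, changed by 0.43 ± 0.13 (adjusted p = 0.0408). Sdf2l1 changed by 0.94 ± 0.33 and did not pass (adjusted p = 0.082). Trib3, a pseudokinase induced in the stress response, was lower at an unadjusted p under 0.05 but did not pass, with signals of 314, 482, 269, 163 and 371 at week 20 and 178, 139, 229 and 159 at week 48 that overlapped (-0.75 ± 0.31, adjusted p = 0.151).

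In the fit with the clock index Sel1l was at 0.87 (adjusted p = 0.0598), while Syvn1 kept its call at 1.27 (adjusted p = 0.0165). With the Actb ratio 5 were called, and after centring on the median 4. The count was 3 without week 20 replicate 2, 4 without week 48 replicate 4, and 5 without week 20 replicate 5 or week 48 replicates 2 or 3. Leaving out 1 array ended the calls of Creld2 (week 20 replicate 2), Dnajb11 (week 20 replicate 2, week 48 replicates 1, 3 or 4), Atf4 (week 20 replicates 1, 2, 4 or 5, week 48 replicates 2 or 4), Hspa5 (week 20 replicates 1, 2, 3 or 5, week 48 replicates 1, 2, 3 or 4) and Pdia4 (week 20 replicates 2, 3, 4 or 5, week 48 replicates 2, 3 or 4) (adjusted p from 0.0502 to 0.15). Averaging probe sets ended the calls of Atf4 (log2 change 0.06, adjusted p = 0.881) and Hspa5 (0.39, adjusted p = 0.0589). Of 11 heat shock genes measured 1 was called (9.09%, near the 6.88% of all genes). Hsph1, a cytosolic chaperone of the HSP110 family, was higher (1272 to 3077 at week 20 and 2729.6 to 4598 at week 48, 1.03 ± 0.31, adjusted p = 0.0384). Its call ended in 6 of the 9 fits with 1 array left out. Hspa1b, the inducible HSP70, had signals of 2664, 1217, 5593, 7287 and 1182 at week 20 and 4356, 7619.6, 7730.4 and 14299 at week 48, which overlapped (1.5 ± 0.58, adjusted p = 0.121).

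**Figure D3:**
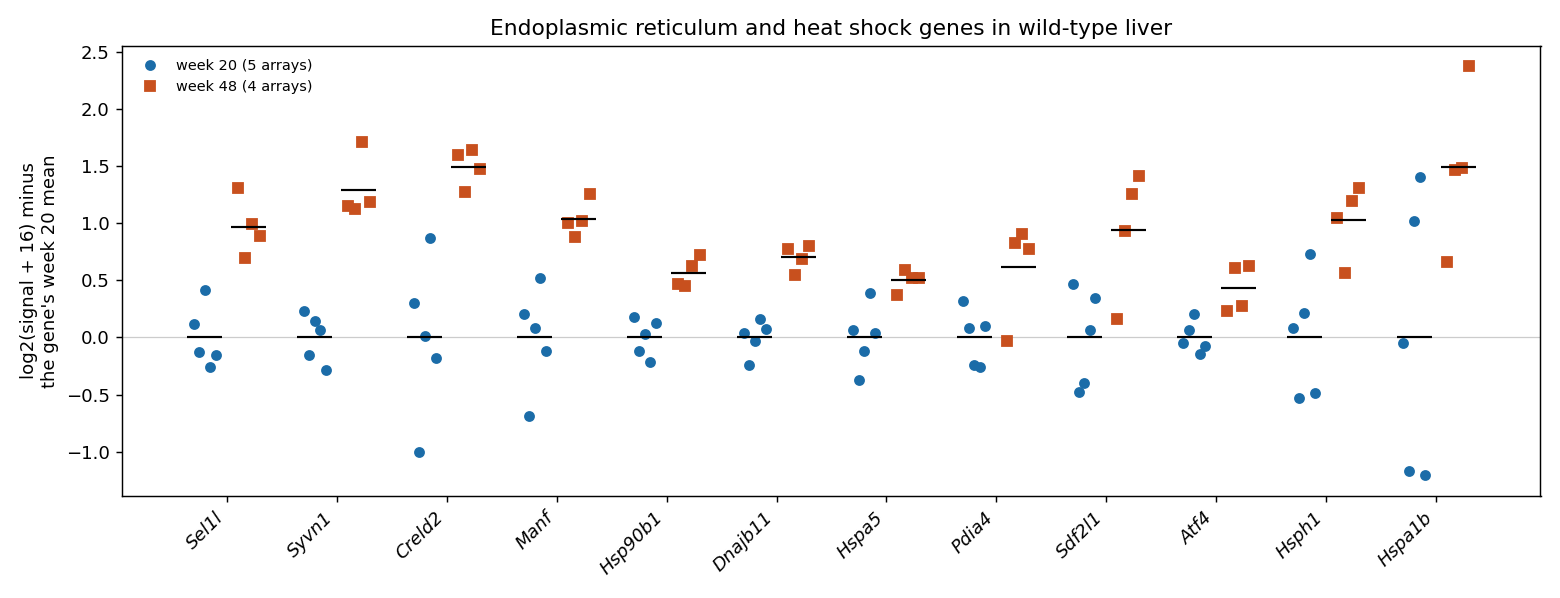
ER and heat shock genes on each wild-type array, as log2(signal + 16) minus the gene's week 20 mean (circles week 20, squares week 48, bars group means). Sel1l, Syvn1, Creld2, Manf, Hsp90b1, Dnajb11 and Atf4 do not overlap between the ages, while Hspa5, Pdia4, Sdf2l1, Hsph1 and Hspa1b do.

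The largest rise of any gene under the naming rule was that of a lipid droplet gene. Cidea, which makes lipid droplets fuse and grow and is scarce in lean liver, had signals of 11.4, 28, 70.7, 163 and 89.9 at week 20 and 5045, 6189, 2314 and 2979 at week 48. The lowest week 48 array stood far above the highest week 20 array, and the change was 5.73 ± 0.82 on the log2 scale, or 53.2-fold on the scale of log2(signal + 16) (adjusted p = 9.22e-05). It kept its call with the clock index (5.95, adjusted p = 0.00737) and the Actb ratio (5.48, adjusted p = 0.00201) as covariates. Its change was 5.38 to 6.06 with 1 array left out. Cidea is also a gene of fat tissue, and the mean log2 level of 3 adipocyte markers was 9.08 in week 20 replicate 1, 9.85 in week 48 replicate 4 and 6.30 to 7.45 on the other 7 arrays. The change of Cidea without week 48 replicate 4 was 5.85. The part of fat tissue in its signal was not tested. Its relative Cidec was 83, 27.1, 97.4, 257 and 127 at week 20 and 723, 714, 451 and 549 at week 48, without overlap, and changed by 2.44 ± 0.72 (adjusted p = 0.0366). That call ended in 7 of the 9 fits with 1 array left out and with either covariate (adjusted p = 0.328 and 0.204). These were 2 of 22 measured genes of the lipid droplet list (9.09%, near the 6.88% of all genes called), with a list median of 0.15. Mogat1, a monoacylglycerol acyltransferase, was 84.9, 40.6, 140, 183 and 132 at week 20 and 384, 411, 279 and 172 at week 48, with overlap through week 48 replicate 4 (1.36 ± 0.55, adjusted p = 0.139).

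Few enzymes of fat and sterol metabolism were called. Of 18 fatty acid synthesis genes 0 were called, and 3 had an unadjusted p under 0.05, all higher. Acacb, an acetyl-CoA carboxylase, was 497, 36.7, 1076, 147 and 540.4 at week 20 and 1041, 486, 997 and 746 at week 48, with complete overlap (1.39 ± 0.49, adjusted p = 0.0859). Of 18 genes of fatty acid oxidation 0 were called by limma, and 4 had an unadjusted p under 0.05, all lower. Of all 13099 genes 2750 had an unadjusted p under 0.05 by limma, so such counts are near the share of all genes. In cholesterol synthesis 1 of 20 was called (5.0%, near the 6.88% of all genes), although 19 of the 20 changes were positive and the list median was 0.47. The called gene, Hmgcs1, the HMG-CoA synthase of that pathway, was 15853, 3522, 11928, 5986 and 11363 at week 20 and 16728, 21017, 17495 and 18451 at week 48 without overlap (1.1 ± 0.32, adjusted p = 0.0315). The other Hmgcs1 probe sets changed by 1.093, 1.12 and 1.315, each with overlap between the ages. Its week 20 arrays spread over a wide range, and its call ended with 6 of the 9 arrays left out. Without week 20 replicate 2 the median of the list was 0.11. Of 19 bile acid genes 0 were called, with 4 at an unadjusted p under 0.05 by limma, and Cyp7a1, the rate-limiting enzyme of bile acid synthesis, changed by -1.17 ± 0.37 (adjusted p = 0.0528).

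Of 19 lipoprotein genes 2 were lower (10.53%), where the 4.47% of all genes called lower would give about 1. Apom, an apolipoprotein of HDL that carries sphingosine-1-phosphate, had signals of 13082, 13892, 13959, 13576 and 13617 at week 20 and 8616, 7203, 8350.5 and 9799 at week 48. The 5 week 20 arrays lay close together and all 4 week 48 arrays below them (-0.69 ± 0.15, adjusted p = 0.00487). A second Apom probe set changed by -0.33 and its ages overlapped, while averaging the probe sets kept the call. The sterol exporter Abcg5 was 2885, 7355, 4088, 3063 and 2923 at week 20 and 1952, 2160.2, 1744 and 1828 at week 48 (-0.98 ± 0.23, adjusted p = 0.00998). Both calls held with each array left out and ended with the clock index (adjusted p = 0.07 and 0.069), and that of Apom also with the Actb ratio (adjusted p = 0.0685). Ppargc1a, a coactivator of gluconeogenesis and mitochondrial genes, was 177, 245, 58.9, 62 and 107 at week 20 and 153, 448, 882 and 511 at week 48. Week 48 replicate 1 lay inside the week 20 range (1.76 ± 0.46, adjusted p = 0.018), and its averaged probe sets did not pass (0.21, adjusted p = 0.78). It was the 1 call of 15 measured in the glucose list (6.67%, near the 6.88% of all genes), and its call ended without week 48 replicates 3 or 4 (adjusted p from 0.0556 to 0.091). Aass, which starts lysine breakdown, was 1 of 15 amino acid genes called (8816 to 10944 at week 20 and 11954 to 13784 at week 48, 0.37 ± 0.09, adjusted p = 0.0142), and its call ended without week 48 replicate 3. Sdha, a subunit of respiratory complex II, was 1 of 31 respiratory chain genes (0.26 ± 0.08, adjusted p = 0.0468), called in 2 of the 9 fits with an array left out and not with averaged probe sets (0.28, adjusted p = 0.164). The amino acid and respiratory chain lists had 6.67% and 3.23% of their members called, against 6.88% of all genes.

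Among 13 genes of the growth hormone axis, both Stat5 genes, the transcription factors that carry the growth hormone signal in hepatocytes, were higher (15.38% of the list, against 2.41% of all genes). Stat5a had signals of 270.2, 265, 380.1, 302 and 424 at week 20 and 566, 688, 465 and 504 at week 48, without overlap (0.74 ± 0.16, adjusted p = 0.00487). Stat5b was 545, 796, 606, 397 and 616 at week 20 and 868, 756, 858 and 816 at week 48, where week 20 replicate 2 reached the week 48 range (0.5 ± 0.15, adjusted p = 0.0358), and that call ended in 6 of the 9 fits with 1 array left out and with averaged probe sets (0.34, adjusted p = 0.156). Socs2, a feedback inhibitor induced by growth hormone, was 1366, 431, 813, 536 and 1559 at week 20 and 2272, 1328, 3063 and 5544 at week 48 (1.66 ± 0.55, adjusted p = 0.062), which did not pass. With the clock index the adjusted p was 0.205 for Stat5a and 0.0458 for Stat5b, and with the Actb ratio 0.0139 and 0.0294.

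The called genes of DNA replication and mitosis were lower at week 48. Of 16 DNA replication genes 3 were lower and 0 higher (median -0.21), and of 16 mitosis genes 2 were lower and 0 higher (median -0.22). These are 18.75% and 12.5% of the members, against 4.47% of all genes called lower, so the mitosis list is above that share by about 1 gene. Cdt1, which loads the replicative helicase at origins, had signals of 511, 669, 361, 320.4 and 329 at week 20 and 180, 184, 153 and 160.3 at week 48. The week 48 arrays lay in a narrow band under all week 20 arrays (-1.24 ± 0.24, adjusted p = 0.00264). Gmnn, the inhibitor of Cdt1, which is outside the lists and was chosen after its values were seen, was 746, 1051, 947, 958 and 704 at week 20 and 438, 348, 338 and 399.5 at week 48, again without overlap (-1.17 ± 0.16, adjusted p = 4.45e-05). Ccne1, cyclin E1, ranged from 216 to 346 at week 20 and 72.6 to 184 at week 48 (-1.08 ± 0.26, adjusted p = 0.0111). Its second probe set changed by -0.05 with overlap, and averaging the probe sets ended the call (-0.57, adjusted p = 0.101). Rpa3, a subunit of the protein that covers single-stranded DNA, was 637, 689, 676, 820.2 and 699.9 at week 20 and 516, 533, 488 and 439 at week 48 (-0.5 ± 0.12, adjusted p = 0.0133). Cdk1, the kinase of mitotic entry, was 266, 209, 93.1, 174 and 111 at week 20 and 87.3, 24.1, 58.1 and 11.8 at week 48 (-1.7 ± 0.47, adjusted p = 0.0257). Cenpa, the centromeric histone, ranged from 135 to 326 at week 20 and 68.2 to 158 at week 48 (-1.01 ± 0.29, adjusted p = 0.0315). Mki67, the common marker of cycling cells, was 115, 94.4, 92.5, 47.1 and 44.3 at week 20 and 68.1, 12.6, 8.3 and 30.4 at week 48 and did not pass (-1.15 ± 0.53, adjusted p = 0.201). The adjusted p with the clock index as a covariate was 0.0993 for Cdt1, 0.0641 for Ccne1, 0.127 for Rpa3, 0.0751 for Cdk1, 0.0314 for Cenpa and 0.0112 for Gmnn.

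The 2 called CDK inhibitors moved in opposite directions. Cdkn2c, an inhibitor of the cyclin D kinases, had signals of 731, 683, 589, 536 and 482 at week 20 and 208, 178, 210.4 and 312 at week 48. All week 48 arrays lay below all week 20 arrays, and -1.37 ± 0.17 was the change with the smallest adjusted p of the named genes (2.7e-05). With the clock index it was -1.43 (adjusted p = 0.00208). Cdkn1a, a p53 target that encodes p21, was 372, 95.6, 80.2, 323 and 162 at week 20 and 974, 439, 382 and 889 at week 48, without overlap by a narrow margin (1.74 ± 0.49, adjusted p = 0.0296). Its call ended with the clock index (0.29, adjusted p = 0.83) and with the Actb ratio (1.02, adjusted p = 0.291), and when its probe sets were averaged (1.63, adjusted p = 0.0979). These were 2 of 13 measured genes of the p53 and CDK inhibitor list, where the 6.88% of all genes would give about 1. Leaving out 1 array ended the calls of Ccne1 (week 48 replicate 1), Rpa3 (week 48 replicate 4), Cdk1 (week 20 replicates 1 or 2, week 48 replicates 2 or 4), Cenpa (week 20 replicates 1, 3 or 4, week 48 replicates 1, 2 or 3) and Cdkn1a (week 20 replicates 2 or 3, week 48 replicates 1 or 4) (adjusted p from 0.0515 to 0.116). H2az2, a histone H2A.Z, was 3001, 3169, 3614, 3729.6 and 2894 at week 20 and 2393, 2304, 2049 and 2413 at week 48, with no overlap (-0.51 ± 0.09, adjusted p = 0.00121).

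**Figure D4:**
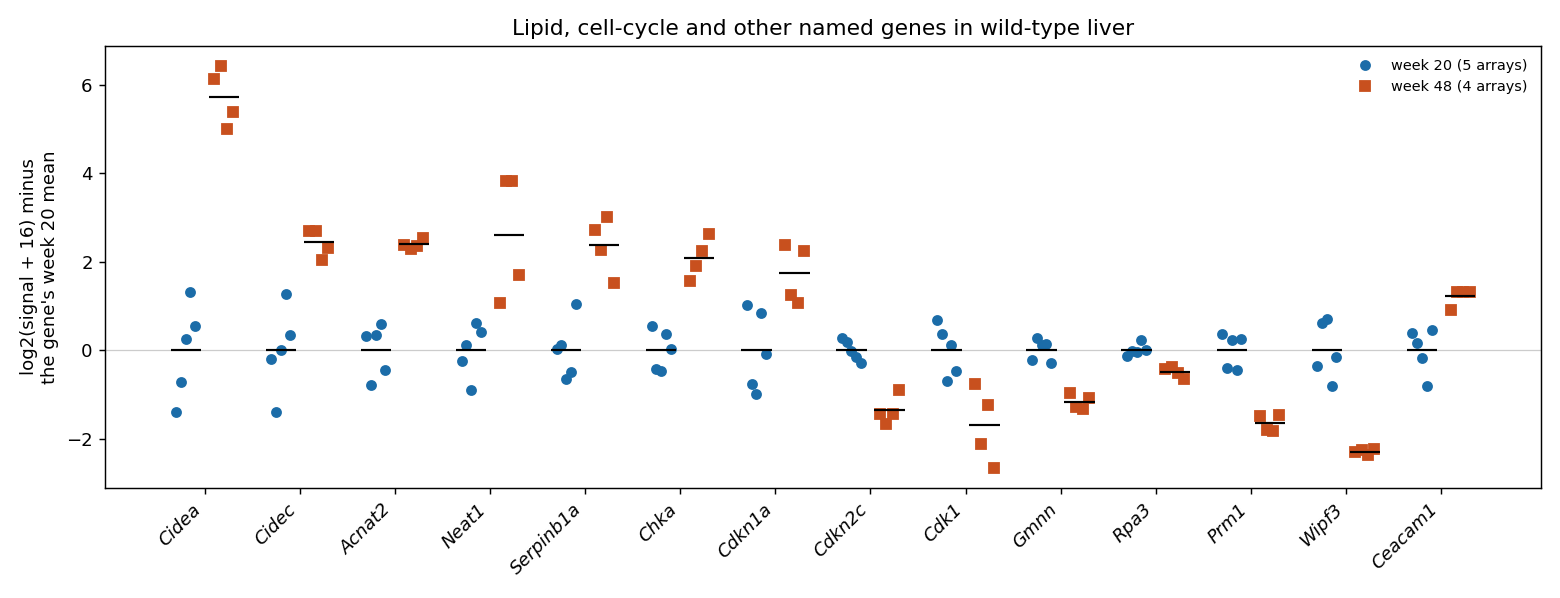
Lipid, cell-cycle and other named genes on each wild-type array, as log2(signal + 16) minus the gene's week 20 mean (circles week 20, squares week 48, bars group means). Cidea stands furthest above 0 at week 48, and Cdkn2c, Gmnn, Rpa3, Prm1 and Wipf3 lie below their week 20 arrays without overlap.

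Markers of the cell types of liver were not called. Of 123 different markers measured in the 15 cell lists, 0 were called by limma at the adjusted threshold, and 4 had an unadjusted p under 0.05, all higher at week 48. Among all 13099 genes 2750 had an unadjusted p that low, which is a larger share. The mean log2 level of resident Kupffer cell markers was 10.2 to 10.8 at week 20 and 9.36 to 10.7 at week 48. For stellate cells and myofibroblasts it was 8.33 to 9.45 and 8.93 to 9.57, and for T and NK cells 6.01 to 6.63 and 6.02 to 6.48. Of 27 extracellular matrix genes 0 were called, with 1 at an unadjusted p under 0.05. Ighm, the heavy chain of IgM, had signals of 759.6, 3254, 1062, 221 and 162 at week 20 and 16029.8, 2077, 1964 and 2586 at week 48. Week 48 replicate 1 stood far above the rest, and the change of 2.48 ± 0.82 did not pass (adjusted p = 0.0609). Irf7, a factor of the interferon response, was the 1 call of 20 interferon genes (764 to 1511 at week 20 and 482 to 949 at week 48, -0.7 ± 0.2, adjusted p = 0.0306). Steap4, an iron reductase, was the 1 call of 22 acute phase genes (2374 to 5679.8 at week 20 and 5486 to 9585 at week 48, 0.85 ± 0.24, adjusted p = 0.0269). The called shares of the interferon and acute phase lists, 5.0% and 4.55%, were under the 6.88% of all genes. Leaving out 1 array ended the calls of Irf7 (week 20 replicates 2 or 4, week 48 replicates 1, 2 or 3) and Steap4 (week 20 replicate 2, week 48 replicates 3 or 4) (adjusted p from 0.0695 to 0.119). Afp, a fetal liver gene, ranged from 70 to 329 at week 20 and 42.4 to 62 at week 48 without overlap and did not pass (-1.12 ± 0.38, adjusted p = 0.072). The 12 skeletal muscle markers had a median change of 1.98, and of 0.29 without week 48 replicate 4. The 16 pathway lists without a call held 203 measured genes, of which 24 had an unadjusted p under 0.05, again a smaller share than that of all genes.

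Several of the largest rises lay outside these lists. Neat1, the long noncoding RNA that builds paraspeckles, had signals of 766, 979.9, 480.2, 1402 and 1205 at week 20 and 1921, 12988, 13090.2 and 2999.6 at week 48. Week 48 replicates 2 and 3 were far above the other 2, and all 4 were above week 20 (2.61 ± 0.41, adjusted p = 0.000399). Its second probe set changed by 0.37 and its ages overlapped. Acnat2, a peroxisomal acyl transferase, was 321, 142, 328, 394 and 182 at week 20 and 1404, 1312, 1368 and 1561 at week 48 (2.39 ± 0.41, adjusted p = 0.000699). The week 48 arrays lay close together, above all of week 20. Serpinb1a, an inhibitor of neutrophil elastase, was 409, 437, 253, 281 and 846 at week 20 and 2735, 2007, 3368 and 1188 at week 48 (2.37 ± 0.54, adjusted p = 0.00741). Chka, the choline kinase that starts phosphatidylcholine synthesis, was 530.4, 262, 257, 468 and 366 at week 20 and 1099, 1389, 1778 and 2312 at week 48 (2.08 ± 0.34, adjusted p = 0.000437). Gas7, a regulator of the actin skeleton, was 80.2, 9, 35.4, 33.6 and 19 at week 20 and 210, 202, 166 and 229.7 at week 48 (2.22 ± 0.54, adjusted p = 0.0123). Zfp979, Lrtm1 and Nhsl1 changed by 1.91 ± 0.33, 1.76 ± 0.47 and 1.72 ± 0.44 (adjusted p = 0.000748, 0.0194 and 0.0166). Of these 8, Neat1, Acnat2 and Zfp979 kept their calls with the clock index, and the call of Lrtm1 ended without replicate 2 of either age (adjusted p from 0.0587 to 0.0661).

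Besides Dbp, Upp2, Usp2 and Cdk1, the 12 largest falls under the naming rule were those of 8 further genes. Wipf3, an actin regulator of the WIP family, had signals of 191, 387, 416, 135 and 221 at week 20 and 37.3, 39, 35.3 and 39.8 at week 48. The week 48 arrays were nearly equal and below all of week 20 (-2.3 ± 0.3, adjusted p = 4.45e-05). Prm1, a protamine known from sperm, was 987, 567, 899, 554 and 906 at week 20 and 262, 205, 201 and 264 at week 48 (-1.65 ± 0.28, adjusted p = 0.000737). Fam131b ranged from 49.7 to 147 at week 20 and 14.6 to 32.9 at week 48 (-1.54 ± 0.27, adjusted p = 0.000881), and Abhd8, an alpha/beta hydrolase, from 22.1 to 120.4 at week 20 and 5.9 to 9.2 at week 48 (-1.71 ± 0.42, adjusted p = 0.0137). Spaca4, a sperm acrosome protein, changed by -1.72 ± 0.38 (adjusted p = 0.00621), and Plekhg5 by -1.48 ± 0.28 (adjusted p = 0.00194). Unc5a, a netrin receptor, was 148, 183, 290.1, 203 and 139.9 at week 20 and 43.8, 16.1, 89.6 and 133 at week 48 (-1.45 ± 0.35, adjusted p = 0.0114), and its call ended without week 48 replicate 2 (adjusted p = 0.0713). Aldh1a3, which makes retinoic acid, ranged from 30.8 to 58 at week 20 and 2 to 6.6 at week 48 (-1.53 ± 0.44, adjusted p = 0.0302), and its call ended in 6 of the 9 fits with 1 array left out. Of these 8, Wipf3, Prm1, Fam131b and Abhd8 kept their calls with the clock index. The week 48 signals of Wipf3, Fam131b, Abhd8 and Aldh1a3 were all under 71.7, the lowest median signal of a wild-type array. Fam131b, Abhd8 and Aldh1a3 were not measured in the fit on the upper 40% of probe sets.

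The same ages can be compared in the transgenic livers, which share no array with the wild-type groups. On the basal diet 2063 genes were called between week 48 and week 20 (15.7%), and on the peretinoin diet 1762 (13.5%). Of the 901 wild-type calls, 389 were called in the same direction on the basal diet, which is 43.2% of the wild-type calls and 18.9% of the basal diet calls. On the peretinoin diet 265 were, or 29.4% of the wild-type calls and 15% of those on that diet. In each of the 2 transgenic groups 6 of the 901 were called in the opposite direction. The share for genes higher in wild type was 42.7% (135 of 316) on the basal diet, against a background of 5.99% of all genes called higher there, and for genes lower it was 43.4% (254 of 585) against 9.76%. On the peretinoin diet it was 26.9% (85) against 4.89% and 30.8% (180) against 8.57%. The clock index moved the same way in both transgenic groups, from -3.34 to 0.07 and from -2.99 to -1.33 in the group means. With it as a covariate 37 and 79 of the 211 wild-type calls of that fit were shared. The Actb 3'/5' ratio also moved the same way as in wild type. On the basal diet it was 1.62 to 1.74 at week 20 and 1.3 to 1.57 at week 48, without overlap. On the peretinoin diet it was 1.7 to 3.31 and 1.42 to 1.94, with overlap. With the Actb ratio as a covariate 259 and 73 of the 537 wild-type calls of that fit were shared. Both fits called fewer wild-type genes than 901, so their shared counts cannot be set directly against 389 and 265. Other reasons for the differences were not tested. Without week 20 replicate 2 or week 48 replicates 2, 3 or 4 of wild type, the wild-type calls were 581, 556, 528 and 518. Of these, 246, 251, 257 and 230 were shared with the basal diet. Without week 48 replicate 4, 168 of the 518 were shared with the peretinoin diet.

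Called in the same direction in all 3 comparisons were 165 genes, 60 higher and 105 lower. Those named here as shared, other than Serpinb1a, Per3, Unc5a and Manf, were chosen after their values were seen. Ceacam1, which promotes the clearance of insulin by the liver, had signals of 2292, 1972, 1539.8, 987 and 2403 at week 20 and 3304, 4389, 4407 and 4374 at week 48 (1.21 ± 0.26, adjusted p = 0.00552). The groups did not overlap, and the change was 1.19 ± 0.25 on the basal and 1.48 ± 0.25 on the peretinoin diet (adjusted p = 0.0017 and 0.000429). Another Ceacam1 probe set of similar signal changed by -0.21 in wild type with overlap, while its remaining ones rose without overlap. Averaging the probe sets kept the call. Clpx, a subunit of a mitochondrial protease, was 6111, 3296, 2556, 3146 and 6290.1 at week 20 and 12544, 11229, 9402 and 9881 at week 48 (1.42 ± 0.25, adjusted p = 0.000868), with 1.33 and 0.93 in the transgenic groups. Aqp8, a water channel, was 1392, 371, 2181, 1281 and 2539 at week 20 and 4276, 4445, 4128 and 4050.5 at week 48 (1.69 ± 0.42, adjusted p = 0.014), with 2.58 and 1.42. Insig2, which holds the sterol sensor in the ER, changed by 1 ± 0.27 (adjusted p = 0.0225), with 0.95 and 1.05. Slc5a2, a glucose transporter best known from kidney, changed by 1.3 ± 0.34 (adjusted p = 0.0172), with 1.27 and 1.12. The second Slc5a2 probe set went the other way in wild type (-0.63), and averaging the 2 ended the call (0.33, adjusted p = 0.387). Leaving out 1 wild-type array ended the calls of Insig2 (week 20 replicates 2 or 3, week 48 replicate 2) and Slc5a2 (week 20 replicate 2, week 48 replicate 4) (adjusted p from 0.054 to 0.0815). Serpinb1a changed by 1.47 and 2.48 in the transgenic groups, Per3 by -2.57 and -1.45, Unc5a by -1.64 and -1.47, and Manf by 1.04 and 0.85. Cidea changed by 1.33 ± 0.77 on the basal diet (adjusted p = 0.254) and by 2.94 ± 0.77 on the peretinoin diet (adjusted p = 0.0115). Its age change in wild type minus that on the basal diet was 4.4 ± 1.12, which did not pass (adjusted p = 0.0834).

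**Figure D5:**
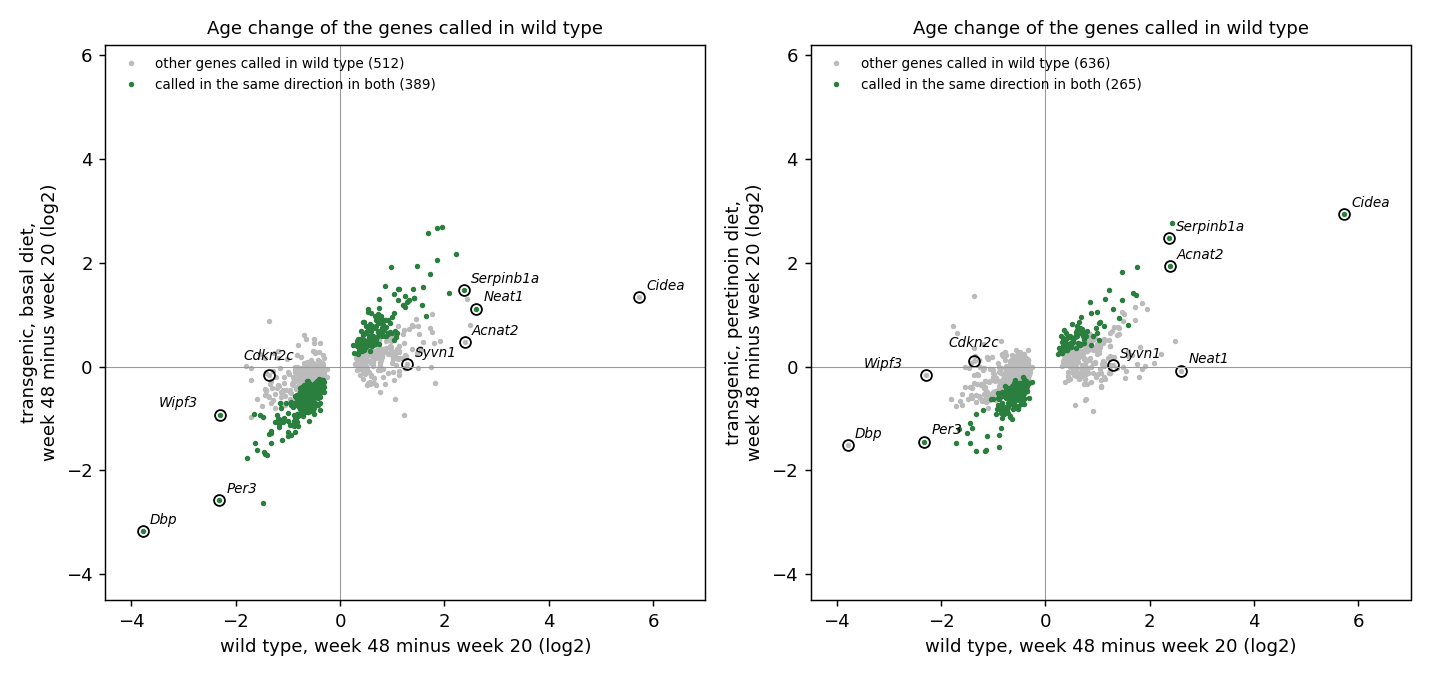
Change from week 20 to week 48 (log2) of the 901 genes called in wild type, in wild type (x axis) against transgenic livers on the basal diet (left) and on the peretinoin diet (right). Green points are the 389 and 265 genes called in the same direction in both, and named genes are circled.

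The difference between the wild-type age change and that of the basal diet group was tested gene by gene, and 36 of 13099 genes were called (0.275%), 14 of them among the 901. The 5 with the smallest p were H2az2, Rpa3, Tns1, Zwint and Eif3b. H2az2 changed by -0.51 in wild type and by 0.3 on the basal diet (difference -0.81 ± 0.13, adjusted p = 0.00488). Rpa3 changed by -0.5 and 0.54 (difference -1.03 ± 0.17, adjusted p = 0.00488). Zwint, a kinetochore protein, was 2518, 2345, 2458, 3191 and 2374 at week 20 and 2056, 2269, 1720.2 and 1842 at week 48 in wild type and changed by -0.38 there and by 0.46 on the basal diet (difference -0.84 ± 0.15, adjusted p = 0.00824). Averaging its probe sets ended the wild-type call (-0.21, adjusted p = 0.32). For Tns1, a focal adhesion protein, and Eif3b, a translation factor, the wild-type change did not pass (0.37 and 0.07), and the basal diet change was -1.66 and -0.68 (differences 2.03 ± 0.35 and 0.76 ± 0.14, adjusted p = 0.00794 and 0.00824). Of the genes described above, Cdkn2c changed by -0.16 on the basal diet (difference -1.21 ± 0.24, adjusted p = 0.0173) and Syvn1 by 0.04 (difference 1.25 ± 0.29, adjusted p = 0.0492). Against the peretinoin diet 90 genes were called (0.687%), 27 of them among the 901. Gmnn changed by -0.37 on the basal diet, and its difference of -0.79 ± 0.21 did not pass (adjusted p = 0.116). The count of 36 was 12 to 66 with 1 of the 19 arrays left out. It was 12 to 23 without each of 12 of these arrays (week 20 wild-type replicates 1, 3 and 5, week 48 wild-type replicates 2, 3 and 4, and 6 transgenic arrays) and 66 without week 20 wild-type replicate 2.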

How the data were processed

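Total RNA of liver (RNeasy kit) was labelled as biotinylated cRNA and hybridised to Affymetrix arrays, per the labels' protocols. The authors deposited 1 linear intensity (MAS5 signal) per probe set and array, produced by MAS5 according to the submitters' processing notes, whose version is not given in the sources used here. The deposited intensity values had a 2% trimmed mean of 500.003 to 500.004 on every array. MAS5 scales each array to a common level, so a shift common to most genes is not seen.

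From these, log2(signal + 16) was computed, the upper 60% of the non-control probe sets by mean signal were kept, and each gene with a single symbol was given by its probe set of highest mean, which left 13099 genes. Levels of different probe sets were not compared. limma 3.58.1 in R 4.3.3 (lmFit and eBayes with a trend) fitted 7 groups over 34 arrays, with Benjamini-Hochberg adjustment over all genes and a threshold of 0.05. Fold changes are on the log2(signal + 16) scale, which understates changes of dim genes. The script was tested on simulated data. The number of arrays limits the precision.

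Genes were named by rule: the 12 largest rises and 12 largest falls among called genes without overlap between the ages (unnamed clones left out), up to 4 members of smallest p per list and further members where a sentence needed them, all measured clock genes, and the 5 smallest interaction p. The members and lists were chosen with earlier results of these data known. Alternatives were offsets of 1 and 64, other filters, averaged probe sets, other scaling, the wild-type arrays alone, covariates, the replicate block and leaving out each array.

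Replicate numbers occur in both age groups. The deviations of same-numbered arrays correlated at -0.0307, 0.0652, 0.123 and 0.0888, so the numbers were not used to pair them. Promoters are from RefSeq (GRCm38.p6), and a motif was searched on both strands in windows of 300 bases.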

Additional observations from a re-analysis of the deposited data

Results flagged for a closer look

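Among 204 groups of values of 4 or 5 arrays, 13 held 1 array far from the rest by Dixon's test. Chance flags about 1 in 20 groups. At week 20, Zwint was 3191 in replicate 4 and the Gapdh 3'/5' ratio was 0.85 in replicate 3. At week 48, replicate 1 stood apart for Ighm (16029.8), Ceacam1 (3304), Cry2 (409.6), Pdia4 (714) and the mean log2 level of cholangiocyte markers (6.37). Replicate 3 stood apart for Arntl (514), Per3 (139), Syvn1 (8593) and Wee1 (178). Its clock index, -1.29, was the lowest of the 4. Replicate 4 stood apart for adipocyte markers (9.85) and skeletal muscle markers (11.64).

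The wild-type age change differed from that of transgenic livers on the basal diet, by the interaction test in limma, for 7 of the genes named. The difference, wild type minus transgenic on the log2 scale, was -1.21 for Cdkn2c, -0.81 for H2az2, -1.03 for Rpa3, -0.84 for Zwint, 0.76 for Eif3b, 1.25 for Syvn1 and 2.03 for Tns1.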

How the results depend on the processing

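The count of 901 called genes stayed within 1.5 times under 8 of the 11 alternatives. It was 302 on the compared arrays alone (113 higher, 189 lower, 105 shared with the peretinoin diet). It was 537 with the Actb ratio as a covariate (186 and 351; 259 shared with the basal and 73 with the peretinoin diet), and 211 with the clock index (72 and 139; 37 and 79 shared). Median centring gave 200 higher. The 36 interaction calls were 20 without the filter, 57 with averaged probe sets and 23 after median centring. The replicate block gave 1030 calls, and 3 of 4 week 48 arrays correlated best with their own number, a hint from the data and not from the design. With 1 array left out, the calls were 518 to 854 (160 to 297 higher, 348 to 558 lower), those shared 230 to 384 and 168 to 292, and the interaction calls 12 to 66. The clock index difference was 2.74 to 3.52 and the Actb log2 ratio difference -0.435 to -0.324 (exact permutation p up to 0.0357), against -0.0513 for Gapdh. With the clock index as a covariate the changes of Ciart (0.0373), Cry1 (-0.455), Cry2 (0.373), Hlf (0.494), Nr1d2 (0.0953), Per2 (0.126) and Tef (0.035) turned sign. That covariate is built from clock genes and differs between the ages, so it takes part of the age difference with it; other causes of these moves were not tested. Of the 65 named calls, 16 were kept with the clock index, 42 with the Actb ratio and 41 on the compared arrays alone. The diet, the hour of collection and the age cannot be told apart with 9 arrays.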
